A study of Mus musculus with 2 samples.

Results

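The 35 genes described here encode the lysosome's acid hydrolases, the proteins that help them, the lysosomal membrane proteins and the proton pump that acidifies the lumen. They were found by gene symbol among the 53717 features of the deposited count matrices, and every symbol matched a feature. The pump accounts for 16 of them, with 8 subunits of the cytosolic V1 domain, 6 of the membrane-embedded V0 domain and 2 accessory proteins. The other 19 comprise 10 hydrolases, 3 soluble carriers and activators, and 6 membrane proteins.

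The pump, or V-ATPase, splits ATP in its V1 domain and turns a ring in its V0 domain, which carries protons into the lysosome. Acid hydrolases work at the resulting low pH and break down sugars, lipids and proteins, and inherited loss of many of them causes a storage disease of the brain. Microglia and macrophages degrade engulfed material by this route, while neurons use the same pump to load synaptic vesicles.

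Single-cell RNA was measured in papain-dissociated hippocampus of 5xFAD mice, which carry familial Alzheimer's disease transgenes and form amyloid plaques. The NeuroD1 library came from mice given AAV9-GFAP::NeuroD1-P2A-GFP, a vector for the proneural transcription factor NeuroD1 and GFP. The GFP library came from mice given AAV9-GFAP::GFP. Both vectors use the GFAP promoter, chiefly an astrocyte promoter, so the groups share the 5xFAD background, AAV9 and GFP. The labels record a time of 6 months, and the series text gives 3 weeks between injection and collection and 3 mice per group. Each group was 1 library and its animals cannot be separated, so no test between groups was possible. Values are CPM, a gene's UMIs divided by all UMIs of a cell class and scaled to a fixed total, and a number in parentheses after a pair of CPM values is the ratio of NeuroD1 over GFP. Bracketed ranges are exact 95% intervals, which cover counting error only and say nothing of the spread between mice. Past a size of 1.5-fold in either direction a gene is called higher or lower here, and genes with at least 50 UMIs in the sums of both libraries together count as measured. A class is named "-like" from its marker genes, and neither the 35 genes nor related lysosomal genes were used to form it.

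The NeuroD1 library held 51236521 UMIs in 13402 barcodes and the GFP library 17504950 UMIs in 11739 barcodes, of which 12786 cells of the NeuroD1 library (median 2556 UMIs) and 11079 of the GFP library (median 1168 UMIs) were kept. The libraries stood apart in several respects. The Y-linked Ddx3y was at 69.5 CPM in the NeuroD1 library against 0.0618 CPM in the GFP library, and Xist at 0.0413 CPM with NeuroD1 and 103 CPM with GFP, so the sex of the animals cannot be told apart from the vector. No delivered RNA checked the NeuroD1 label, because the vector feature ND1 had 0 UMIs in both libraries and vector GFP in astrocyte-like cells was at 46.6 CPM in the NeuroD1 library against 8093 CPM in the GFP library. RNA of other cells was present in every class. Ttr of the choroid plexus reached 14510 CPM in microglia-like cells of the NeuroD1 library against 1975 CPM in those of the GFP library. The 14 microglia markers summed to between 121 and 438 CPM in the astrocyte-, oligodendrocyte-, endothelial cell-, choroid plexus epithelium- and neuron-like classes of the NeuroD1 library, against between 1530 and 3281 CPM in those of the GFP library, with no marker at 0. The libraries shared 99 barcodes.

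The classes differed in how much of their RNA these genes made up. In microglia-like cells the 35 genes took 1.54% of UMIs in the NeuroD1 library against 1.66% in the GFP library, and border macrophage or monocyte-like cells 1.16% (NeuroD1) and 1.31% (GFP). Of the other classes with at least 50 cells per library, the immature neuron-like one held microglial RNA and is left out here, and in the remaining 8 the share ran from 0.424% to 0.785% in the NeuroD1 library and from 0.380% to 0.905% in the GFP library. Single microglia-like cells overlapped between libraries, with a median share of 1.51% (quartiles 1.27% and 1.84%) in the NeuroD1 library and 1.60% (1.27% and 1.95%) in the GFP library.

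The pump and the degradative genes were highest in different classes. Of the 14 pump genes that could be placed, 9 had their highest CPM in neuron-like cells in each library. Of the 19 genes outside the pump, 11 (NeuroD1) and 13 (GFP) were highest in microglia-like or border macrophage or monocyte-like cells. Of the 33 genes that could be placed, 20 had the same first class in both libraries. The first class exceeded the second beyond counting error for 12 pump genes in the NeuroD1 library against 6 in the GFP library, and for 12 of 19 other genes in each library. No share over all genes stands beside these counts of first classes. They describe the members and do not set them apart from other genes. Of the 35 genes, 2 were too rare to place. Atp6v0d2 is the d subunit isoform of osteoclasts and macrophages. It had 0 UMIs in microglia-like cells of the NeuroD1 library against 15 in those of the GFP library. All 15 lay in the cluster with most of that library's microglia-like cells. Atp6v0c, which encodes the main proteolipid of the V0 ring, had 43 UMIs in the NeuroD1 library against 30 in the GFP library over all kept cells. The gene has near-identical copies, of which Atp6v0c-ps1 had 0 UMIs in both libraries. How reads were assigned among the copies was not tested, so the count of Atp6v0c is uncertain.

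**Figure D1:**
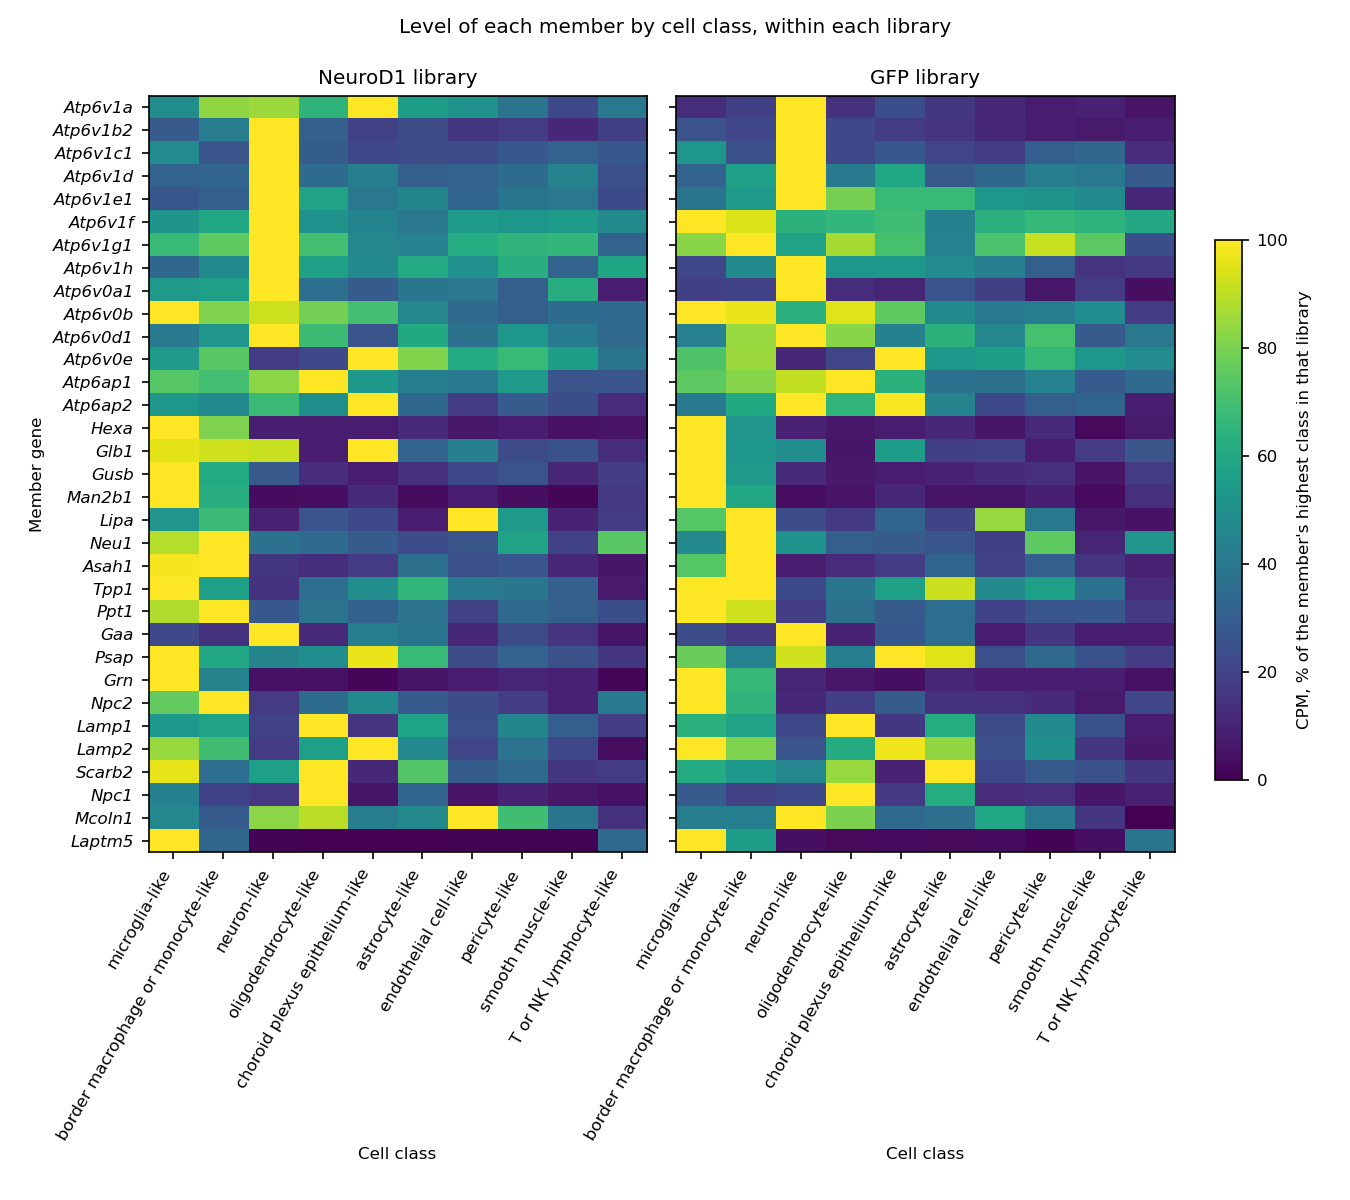
Colour shows the CPM of each of 33 genes in 10 cell classes as a percentage of that gene's highest class in the same library, with the NeuroD1 library on the left and the GFP library on the right. Of 10 hydrolases, 7 (NeuroD1) and 9 (GFP) are brightest in the microglia-like or border macrophage or monocyte-like column, and 9 of 14 pump genes in the neuron-like column of each library. No share over all genes stands beside these counts.

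Several genes were highest elsewhere. Lamp1, a major glycoprotein of the lysosomal membrane, was at 1896 CPM in oligodendrocyte-like cells of the NeuroD1 library against 2046 CPM in those of the GFP library, the first class in both. The same class led for Npc1, the membrane protein that exports cholesterol from lysosomes, at 182 CPM in the NeuroD1 library against 170 CPM in the GFP library. It led also for the pump accessory protein Atp6ap1, at 448 CPM with NeuroD1 and 420 CPM with GFP, although neuron-like cells of the GFP library could not be separated from it by counting error. Gaa, the acid glucosidase that degrades glycogen, was the one hydrolase led by neuron-like cells in both libraries, at 466 CPM in the NeuroD1 library against 572 CPM in the GFP library. Lipa, the acid lipase that releases cholesterol from its esters, led in endothelial cell-like cells of the NeuroD1 library (211 CPM) and in border macrophage or monocyte-like cells of the GFP library (157 CPM), where the endothelial cell-like level of 133 CPM was not separable. Atp6v0e, a small V0 subunit, had neuron-like cells as its lowest class, at 95.9 CPM in the NeuroD1 library against 57.9 CPM in the GFP library. Its highest class was choroid plexus epithelium-like cells, at 545 CPM with NeuroD1 and 512 CPM with GFP. In the GFP library border macrophage or monocyte-like cells, at 434 CPM, could not be separated from that class by counting error.

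A short palindrome was present in the promoters of several of these genes. The transcription factors of the MiT/TFE family, Tfeb among them, bind a palindromic element in promoters of lysosomal genes that has CACGTG at its centre. RefSeq promoter windows on GRCm38.p6, 250 bases before to 50 after the start, were available for 28 of the 35 genes. The letters CACGTG were present in 8 of the 28 (Atp6v0b, Atp6v0d1, Atp6v0e, Atp6v1a, Gaa, Glb1, Lamp1 and Mcoln1), against 8.09% of 27025 genes. The longer TCACGTGA, which contains CACGTG, was present in 4 of the 28 against 1.13% of genes, and TCACGTGA with a G before it and a C after it in 0 against 0.37%. All 3 are the same on both strands. The 4 promoters with TCACGTGA are shown because they are the pump genes and the lysosomal calcium channel gene that carry the extended element. The capitals mark it, and each stretch runs 5′ to 3′ along the gene's own strand from 60 bases before the element to at most 60 after it, ending no later than 30 bases after the start. In Atp6v0d1, at chr8:105566035-105566128 on the minus strand, the element begins 4 bases before the start. In Atp6v0e, at chr17:26676338-26676425 on the plus strand, it begins at base 3 after the start. In Atp6v1a, at chr16:44139324-44139451 on the minus strand, it begins 132 bases before the start, and in Mcoln1, at chr8:3500413-3500540 on the plus strand, 46 bases before.
Atp6v0d1: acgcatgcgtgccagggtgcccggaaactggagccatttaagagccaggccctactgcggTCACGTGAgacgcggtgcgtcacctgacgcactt
Atp6v0e: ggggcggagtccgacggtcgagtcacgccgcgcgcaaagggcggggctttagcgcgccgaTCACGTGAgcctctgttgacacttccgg
Atp6v1a: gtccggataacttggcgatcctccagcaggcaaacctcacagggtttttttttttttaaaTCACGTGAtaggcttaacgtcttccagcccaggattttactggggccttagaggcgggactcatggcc
Mcoln1: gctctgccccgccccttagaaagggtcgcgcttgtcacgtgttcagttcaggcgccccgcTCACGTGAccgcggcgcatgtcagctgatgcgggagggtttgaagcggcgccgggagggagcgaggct
These matches describe letters in the reference, not binding. In microglia-like cells none of the 4 genes passed 1.5-fold between libraries, with ratios of 1.15 for Atp6v0d1, 0.789 for Atp6v0e, 0.841 for Atp6v1a and 0.783 for Mcoln1.

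The first comparison asked how these genes stood in microglia-like cells, the class with the largest share of them. Npc2, Gusb, Glb1, Hexa and the V1 subunit gene Atp6v1f were lower in the NeuroD1 library, and Laptm5, Npc1, Neu1 and Atp6ap2 were higher. Of these 9 genes, Npc2 and Laptm5 also passed 1.5-fold within the cluster that both libraries filled. The 1224 cells of the NeuroD1 library and the 3598 cells of the GFP library lay mostly in different clusters. Cluster 1, led by the plaque-associated genes Cst7, Trem2 and Cd68, held 14 cells of the NeuroD1 library against 2841 of the GFP library. Cluster 12, led by Il1a and Tnf, held 636 cells of NeuroD1 and 65 of GFP, and cluster 7, led by the homeostatic genes Tmem119 and P2ry12, held 574 of NeuroD1 and 692 of GFP. Of 33 measured genes, 4 were higher, a smaller share than the 36.1% of all 9402 measured genes in this class, and 5 were lower, close to the background of 14.5%. The median log2 ratio of the 33 genes was -0.08, against 0.35 over all genes. With ratios taken relative to that all-gene median, 1 gene was higher and 14 were lower. The 36.1% and 14.5% belong to ratios before that shift. No share of all genes was taken after it, so the 1 and the 14 have no background. All 35 together stood at 15390 CPM in the NeuroD1 library against 16600 CPM in the GFP library, a ratio of 0.927 [0.916–0.938]. Without Npc2 that ratio was 1.04 [1.03–1.05], and without Laptm5 it was 0.827 [0.817–0.838].

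Among the hydrolases, 3 of 10 were lower and 1 was higher, and their summed level was 3367 CPM in the NeuroD1 library against 4506 CPM in the GFP library (ratio 0.747 [0.729–0.766]). Gusb, beta-glucuronidase, was at 202 CPM in the NeuroD1 library against 399 CPM in the GFP library, a ratio of 0.507 [0.459–0.558]. Glb1, lysosomal beta-galactosidase, was at 66.2 CPM with NeuroD1 and 118 CPM with GFP (0.559 [0.468–0.663]). Hexa, a subunit of the beta-hexosaminidase that degrades gangliosides, was at 853 CPM with NeuroD1 and 1382 CPM with GFP (0.617 [0.588–0.647]). The intervals of these 3 ratios all end below 1. The alpha-mannosidase Man2b1 was within 1.5-fold at 820 CPM in the NeuroD1 library against 1184 CPM in the GFP library (0.693 [0.659–0.728]). The sialidase Neu1 was higher instead, at 97.4 CPM with NeuroD1 and 63.6 CPM with GFP (1.53 [1.30–1.81]). The other hydrolases also stayed within 1.5-fold, and they do different work. The glycogen-degrading Gaa had a ratio of 0.770 and the thioesterase Ppt1, which removes fatty acids from proteins, 0.804. The acid lipase Lipa had 0.945, the acid ceramidase Asah1 1.02 and the peptidase Tpp1 1.23.

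The soluble carriers lay on both sides of 1. Npc2, which picks up cholesterol in the lumen and hands it to Npc1, was at 997 CPM in the NeuroD1 library against 2774 CPM in the GFP library, 2.78-fold lower [2.67–2.90] in the NeuroD1 library. Its membrane partner Npc1 was at 80.0 CPM with NeuroD1 and 48.5 CPM with GFP, a ratio of 1.65 [1.37–1.99], so the 2 cholesterol-transfer genes lay on opposite sides of 1. Psap, the precursor of the saposins that present lipids to hydrolases, was just inside the threshold at 1854 CPM in the NeuroD1 library against 1247 CPM in the GFP library (1.49 [1.43–1.54]). Grn, the gene of progranulin, was at 1394 CPM with NeuroD1 and 1190 CPM with GFP (1.17). The membrane proteins summed to 4615 CPM in the NeuroD1 library against 3462 CPM in the GFP library (1.33 [1.30–1.36]), and 2 of 6 were higher. Laptm5, a lysosomal membrane protein of immune cells, carried that sum, at 2863 CPM with NeuroD1 and 1459 CPM with GFP (1.96 [1.90–2.03]). Without Laptm5 the other 5 summed to 1751 CPM in the NeuroD1 library against 2003 CPM in the GFP library, on the other side of 1 (0.874 [0.844–0.906]). Without passing 1.5-fold, Lamp1 stood at 1010 CPM in the NeuroD1 library against 1307 CPM in the GFP library (0.773) and Lamp2 at 431 CPM with NeuroD1 and 461 CPM with GFP (0.935). Scarb2, a sorting receptor of the lysosomal membrane, had a ratio of 1.35, and the interval of the calcium channel gene Mcoln1 included 1 (0.783 [0.592–1.03]).

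**Figure D2:**
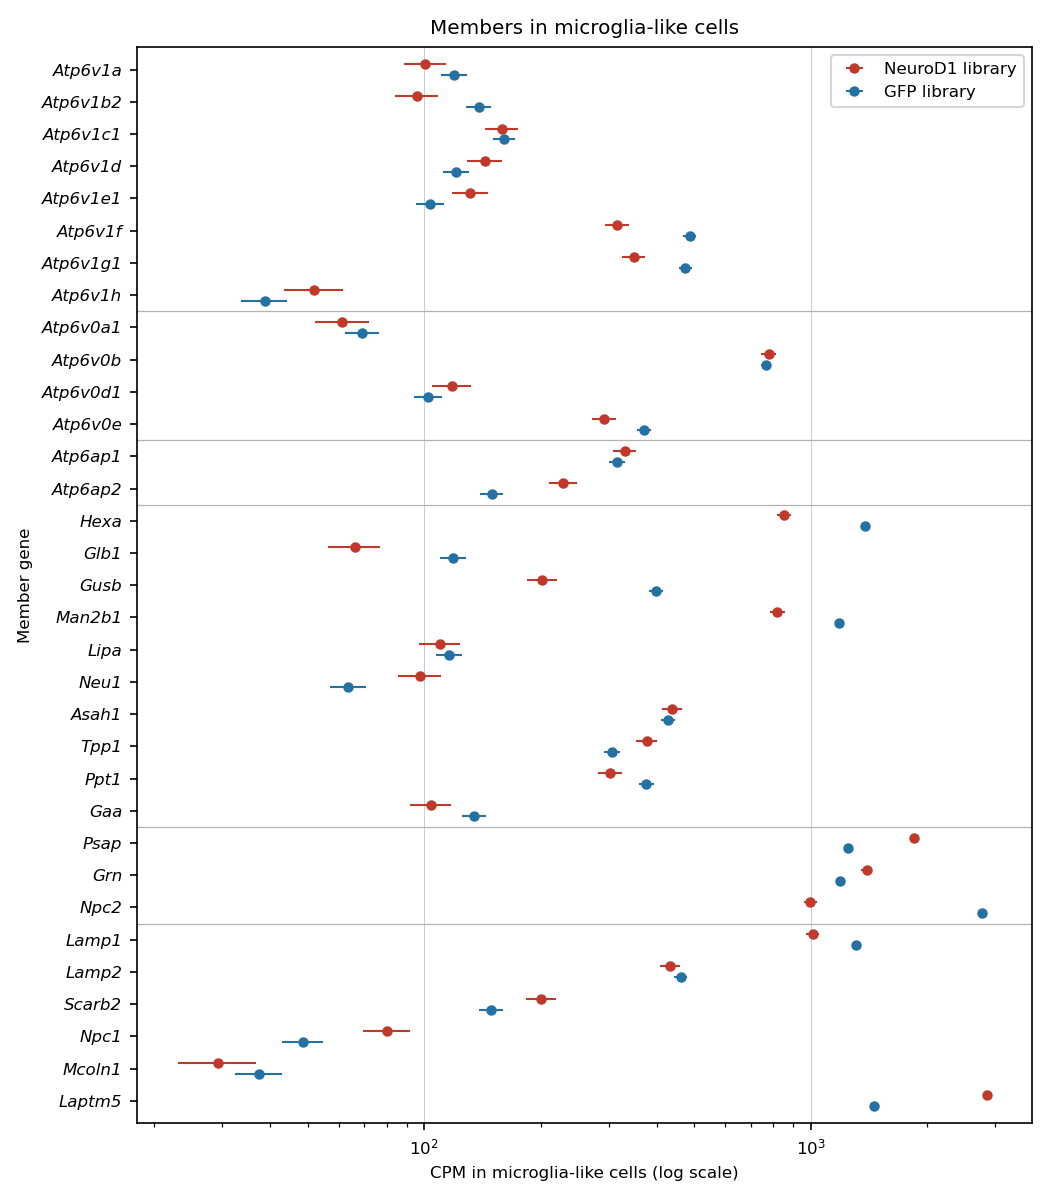
Points show the CPM of each gene in microglia-like cells (log axis) with exact 95% Poisson intervals, NeuroD1 library and GFP library. Npc2 lies farthest to the lower side (997 CPM with NeuroD1 and 2774 CPM with GFP) and Laptm5 farthest to the higher side (2863 CPM with NeuroD1 and 1459 CPM with GFP), while 12 of 14 pump genes are within 1.5-fold.

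The pump's 14 measured genes had a median log2 ratio of 0.00 in these cells, below the all-gene median given above, with 1 higher and 1 lower. Atp6v1f, a subunit of the central stalk of V1, was at 316 CPM in the NeuroD1 library against 486 CPM in the GFP library (0.649 [0.599–0.703]). Atp6ap2, the accessory protein also known as the prorenin receptor, was at 229 CPM with NeuroD1 and 150 CPM with GFP (1.53 [1.38–1.71]). The catalytic subunit gene Atp6v1a had a ratio of 0.841, its partner Atp6v1b2 0.694 and the peripheral stalk gene Atp6v1g1 0.734, all on the lower side. On the higher side were Atp6v1d of the central stalk (1.19), Atp6v1e1 of the peripheral stalk (1.27) and the regulatory Atp6v1h (1.34), while Atp6v1c1 was level (0.988). In V0, Atp6v0b of the proteolipid ring was at 779 CPM in the NeuroD1 library against 766 CPM in the GFP library (1.02). Atp6v0a1 had 0.890, Atp6v0d1 1.15 and Atp6v0e 0.789. Atp6ap1 had 1.05. Subunits of the same complex thus lay on both sides of 1. Atp6v0d2, with its 0 UMIs, could have been at up to 1.19 CPM in the NeuroD1 library (3 counts) against 2.72 CPM in the GFP library, and the exact interval of the ratio ended at 0.608.

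Since the libraries filled different clusters, the comparison was repeated inside cluster 7, the cluster with most cells from both. There Hexa was at 993 CPM in the NeuroD1 library against 793 CPM in the GFP library (1.25 [1.12–1.40]). Gusb (1.08 [0.861–1.35]), Glb1 (0.962 [0.638–1.46]) and Atp6v1f (1.05 [0.880–1.26]) had intervals that included 1. So did Npc1 (1.29 [0.919–1.82]), Neu1 (1.44 [0.972–2.15]) and Atp6ap2 (1.22 [0.960–1.55]). The hydrolases summed to 3852 CPM with NeuroD1 and 3606 CPM with GFP in this cluster (1.07 [1.01–1.13]) and all 35 genes had a ratio of 1.18 [1.15–1.21], both on the other side of 1 from the whole class. Npc2 stayed lower, at 963 CPM with NeuroD1 and 1684 CPM with GFP (0.572 [0.522–0.627]), and Laptm5 stayed higher, at 3601 CPM with NeuroD1 and 1743 CPM with GFP (2.07 [1.93–2.21]). Of 32 measured genes 2 were higher, Laptm5 and Lamp2 (1.62 [1.38–1.90]), and 2 were lower, Npc2 and Atp6v1a (0.643 [0.431–0.956]). Both counts are below the background of 20.4% higher and 11.9% lower among 4666 genes. The median log2 ratio was 0.14, against 0.17 over all genes.

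Within the GFP library, where all cells share the library, cluster 1 was set against cluster 7. Gusb, Hexa, Glb1 and Npc2, which were lower in the NeuroD1 library, were higher in cluster 1. Gusb was at 431 CPM in cluster 1 and 212 CPM in cluster 7 (2.04 [1.72–2.43]). Hexa was at 1484 CPM in cluster 1 and 793 CPM in cluster 7 (1.87 [1.71–2.05]) and Glb1 at 127 CPM in cluster 1 and 68.6 CPM in cluster 7 (1.84 [1.37–2.55]). Npc2 was at 2965 CPM in cluster 1 and 1684 CPM in cluster 7 (1.76 [1.66–1.87]). Of 33 measured genes 6 were higher in cluster 1, with Mcoln1 (1.66 [0.994–2.96]) and Atp6v1f (1.55 [1.35–1.79]) besides these, against 11.9% of 7930 genes. Npc1 alone was lower, at 41.5 CPM in cluster 1 and 86.5 CPM in cluster 7 (0.479 [0.356–0.654]), against 26.1% of genes. Psap and Laptm5 had ratios of 0.675 and 0.812. The pump contributed 1 of the 6, out of 14 measured, and the genes outside it 5 of 19. All 15 Atp6v0d2 UMIs lay in cluster 1, which held 4727055 of the 5506173 UMIs of this class in the GFP library. The gene did not count as measured, and the interval of its ratio, from 0.509 upward, included 1. Cells are not replicates, and the clusters were formed from genes that vary with such states, so these values describe the clusters and test nothing.

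In the NeuroD1 library, cluster 12 was set against cluster 7 in the same way. Atp6v1a was higher, at 122 CPM in cluster 12 and 57.6 CPM in cluster 7 (2.13 [1.55–2.98]). Npc1 was lower, at 65.1 CPM in cluster 12 and 112 CPM in cluster 7 (0.584), as were Lamp2 at 362 CPM in cluster 12 and 565 CPM in cluster 7 (0.640) and the ceramidase Asah1 at 374 CPM in cluster 12 and 567 CPM in cluster 7 (0.660). Npc2 was level, at 967 CPM in cluster 12 and 963 CPM in cluster 7. The backgrounds over 6278 genes were 7.95% higher and 14.4% lower, so 1 and 3 of 33 genes are fewer than over all genes. The median log2 ratio was -0.25, against -0.14 over all genes.

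**Figure D3:**
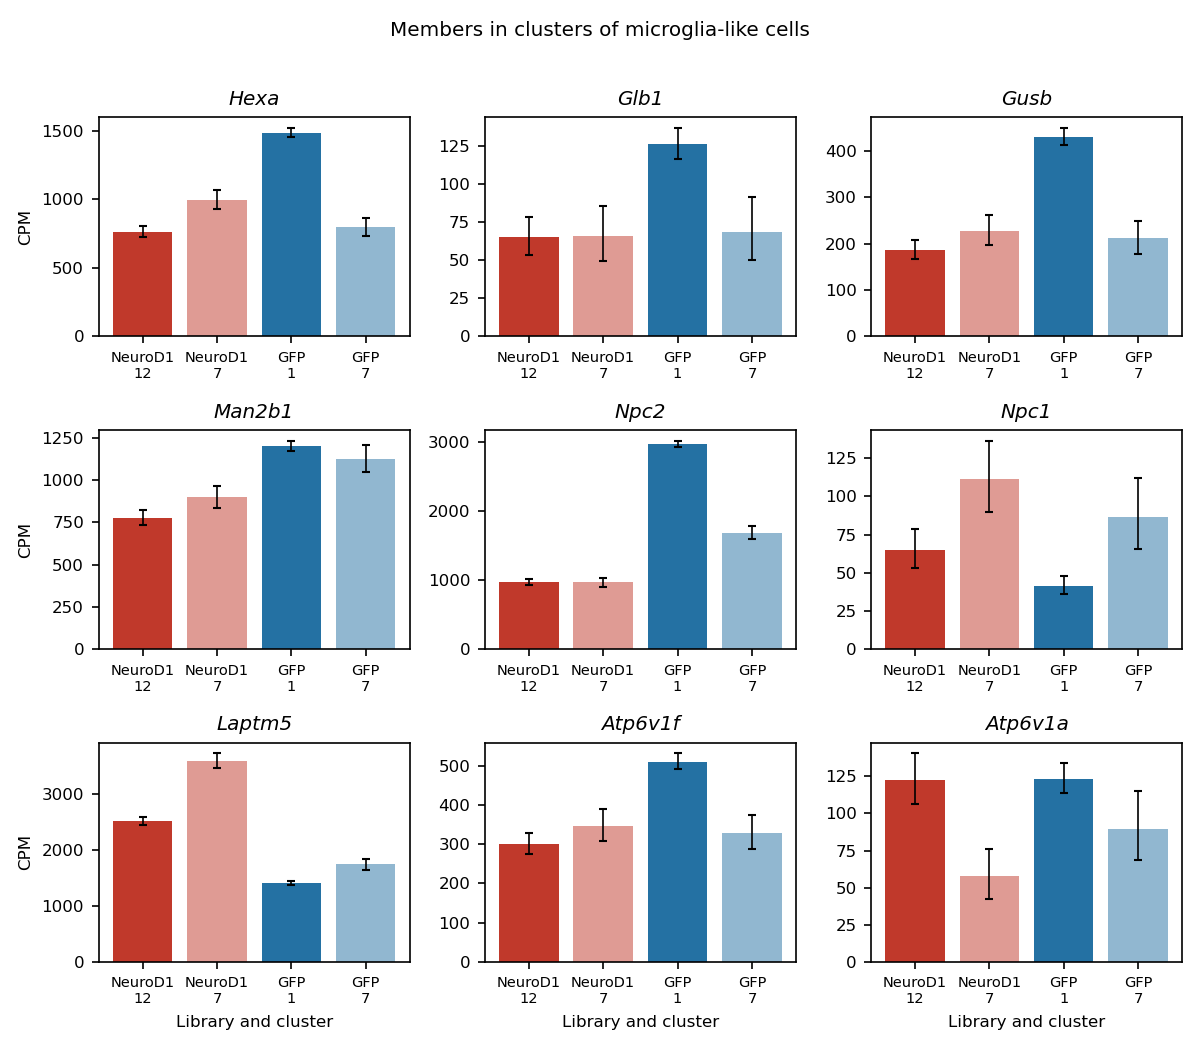
Bars show CPM with exact 95% Poisson intervals for 9 genes in clusters 12 and 7 of the NeuroD1 library and clusters 1 and 7 of the GFP library. Hexa, Glb1, Gusb and Npc2 are tallest in cluster 1 of the GFP library, and Laptm5 is taller in both NeuroD1 clusters than in both GFP clusters.

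Border macrophage or monocyte-like cells, 169 in the NeuroD1 library against 166 in the GFP library and all in cluster 15, gave few counts. Psap was higher, at 1108 CPM in the NeuroD1 library against 711 CPM in the GFP library (1.56 [1.29–1.89]). Gusb was lower, at 124 CPM with NeuroD1 and 215 CPM with GFP (0.576 [0.380–0.875]), as was Scarb2, whose interval included 1 (0.586 [0.342–1.01]). Of 29 measured genes these were 1 higher and 2 lower, below the 14.1% and 15.9% over all 2019 genes. Gusb and Psap thus lay on the same sides of 1 as in microglia-like cells as a whole, and Scarb2 on the opposite side. Within cluster 7 of microglia-like cells the interval of Gusb included 1 (1.08 [0.861–1.35]).

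Astrocyte-like cells, the class in which the GFAP promoter is chiefly active, were the second comparison. Npc1, Atp6v0a1, Lamp2 and Scarb2 were lower in the NeuroD1 library and Atp6v0e was higher. The 3675 cells of the NeuroD1 library were mostly in clusters 5, 10 and 6 (1431, 1067 and 911 cells), and the 2164 of the GFP library mostly in clusters 4 and 6 (1458 and 509). Cells of cluster 6 had few counts, with medians of 732 UMIs with NeuroD1 and 712 with GFP. Both were the lowest of the astrocyte-like clusters, against 4545 in cluster 5 with NeuroD1 and 1254 in cluster 4 with GFP. Of 33 measured genes 1 was higher, against 8.30% of 11320 genes, and 8 were lower, close to the background of 22.5%. The median log2 ratio was -0.18, against -0.14 over all genes. Over the class the pump and the other genes stood on different sides of 0, but not within cluster 6, which both libraries filled. The 14 pump genes had a median of 0.16, with a summed level of 2552 CPM in the NeuroD1 library against 2342 CPM in the GFP library (1.09 [1.06–1.12]). The 19 genes outside the pump had a median of -0.46 and none had a ratio above 1, with 4244 CPM in the NeuroD1 library against 5295 CPM in the GFP library (0.802 [0.787–0.816]). Within cluster 6 the pump was at 2222 CPM with NeuroD1 and 2450 CPM with GFP (0.907 [0.840–0.979]) with a median of -0.08, below 0 like the other genes (-0.52).

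In astrocyte-like cells Npc1 was at 59.2 CPM with NeuroD1 and 105 CPM with GFP (0.561 [0.491–0.644]), the opposite side of 1 from microglia-like cells as a whole. Atp6v0a1, an isoform of the V0 subunit that holds the proton channel, was at 44.7 CPM with NeuroD1 and 96.6 CPM with GFP (0.463 [0.400–0.536]). Lamp2, the membrane protein required for chaperone-mediated autophagy, was at 242 CPM with NeuroD1 and 385 CPM with GFP (0.630 [0.588–0.675]), and Scarb2 at 153 CPM with NeuroD1 and 242 CPM with GFP (0.632 [0.579–0.690]). Within cluster 6, which both libraries filled, Npc1, Atp6v0a1 and Scarb2 passed 1.5-fold and Lamp2 did not. Of 27 measured genes in that cluster 7 were lower and 0 higher, against 19.7% and 7.65% of 3686 genes. The ratios there were 0.559 for Npc1, 0.528 for Atp6v0a1, 0.697 for Lamp2 and 0.451 for Scarb2. Atp6v0e was the exception in the other direction, at 441 CPM in the NeuroD1 library against 273 CPM in the GFP library (1.61), and its ratio was 1.25 in cluster 6. The remaining 4 lower genes, Laptm5, Man2b1, Lipa and Grn, were each below 25% of their highest level in any class of either library, as the larger of both values. Laptm5 stood at 3.13 CPM in the NeuroD1 library against 37.3 CPM in the GFP library (0.0840 [0.0563–0.123]). Microglia markers summed to 198 CPM with NeuroD1 and 1930 CPM with GFP in this class. Grn and Man2b1 had ratios of 0.634 and 0.355 before any subtraction. Microglia-like RNA was then subtracted in the amount given by Laptm5, an alternative chosen after seeing the data. The log2 ratios after it were -0.33 for Grn, inside 1.5-fold, and -0.70 for Man2b1, still past 1.5-fold. The same subtraction gave log2 ratios of -0.85 for Npc1, -1.12 for Atp6v0a1, -0.66 for Lamp2, -0.68 for Scarb2 and 0.70 for Atp6v0e, all still past 1.5-fold.

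**Figure D4:**
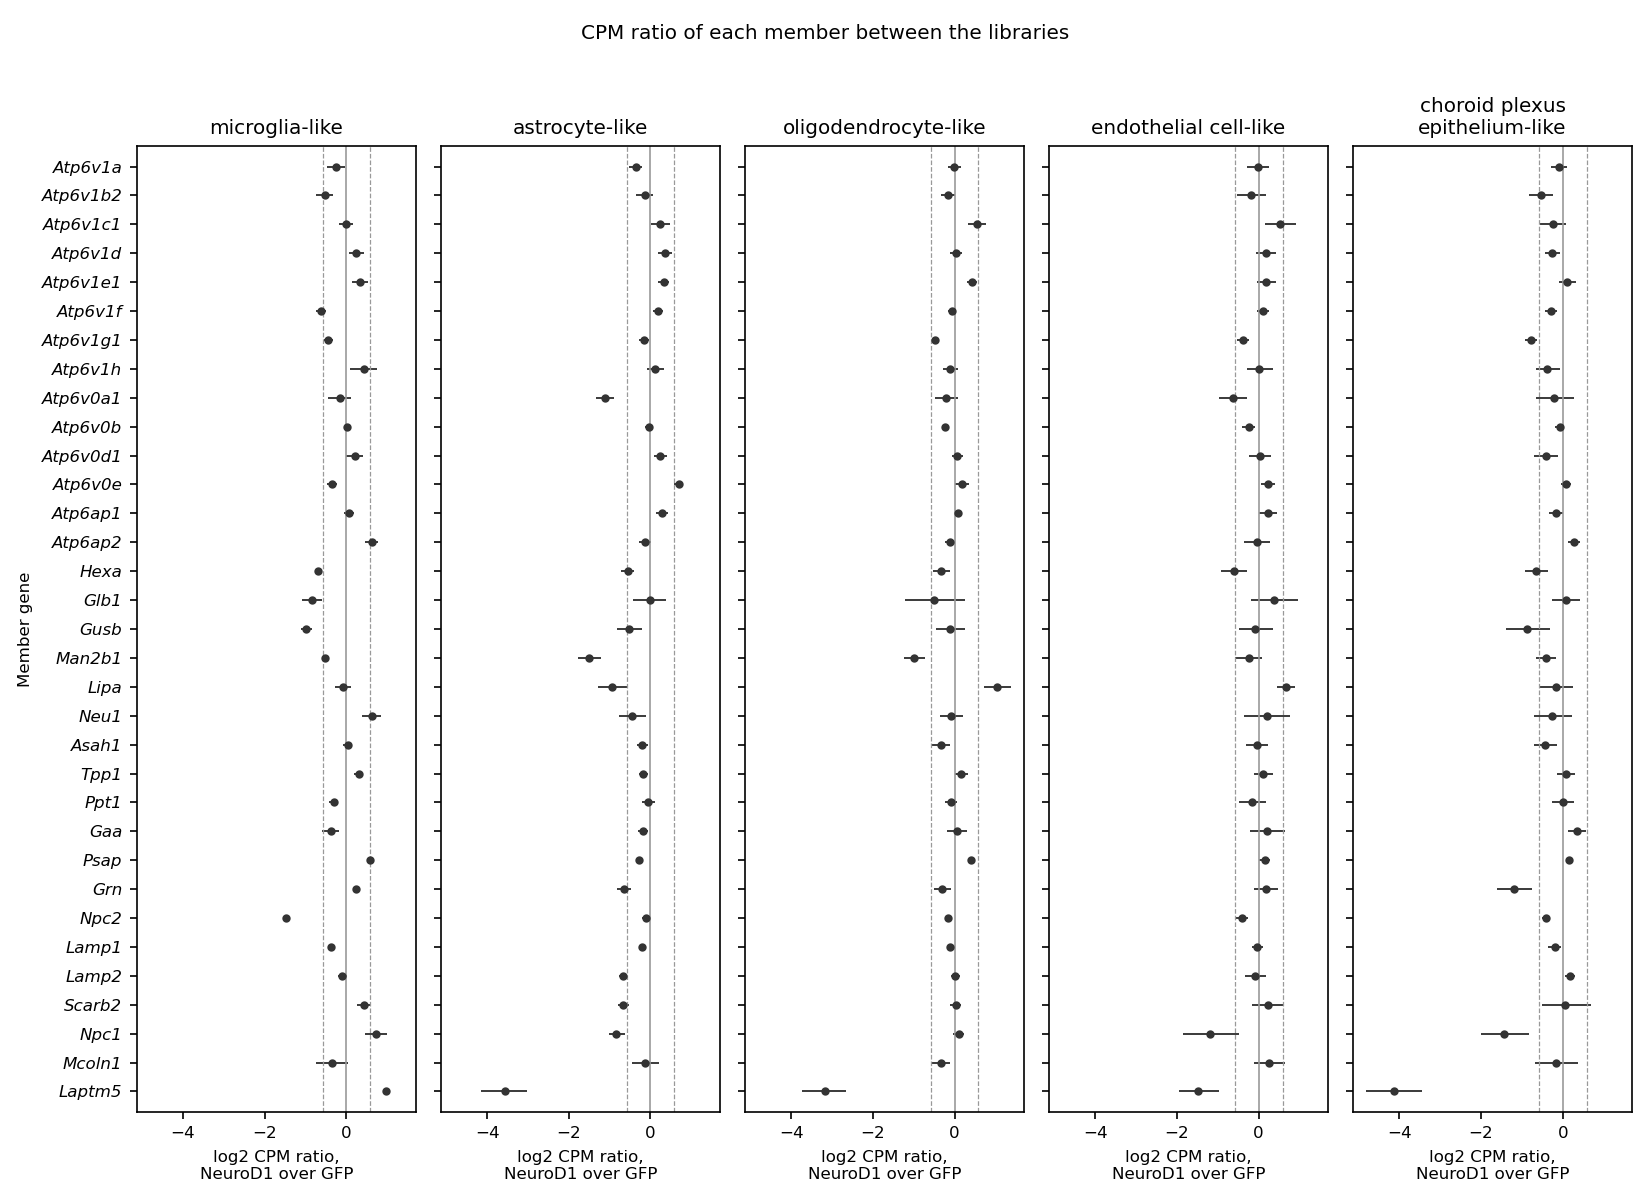
Points show the log2 CPM ratio of NeuroD1 over GFP for each gene in 5 classes with exact 95% intervals, and dashed lines mark 1.5-fold. Npc1 lies above 0 in microglia-like cells and below 0 in astrocyte-, endothelial cell- and choroid plexus epithelium-like cells, and Laptm5 is far below 0 outside microglia-like cells.

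Oligodendrocyte-like cells had a higher Lipa in the NeuroD1 library. It was at 55.9 CPM in the NeuroD1 library against 27.0 CPM in the GFP library (2.07 [1.65–2.62]), and its ratio was 1.99 [1.30–2.99] within cluster 2. Of the 3156 cells of the NeuroD1 library 2652 were in cluster 0, and of the 2275 of the GFP library 1970 were in cluster 2. The genes that led in this class were close between libraries, with ratios of 0.927 for Lamp1 and 1.07 for Npc1. Of 33 genes 1 was higher and 2 lower, Man2b1 (0.504) and Laptm5 (0.111), below the 11.1% and 11.7% over all 10288 genes. Microglia markers were at 152 CPM in this class of the NeuroD1 library and 1530 CPM in that of the GFP library. After subtraction by Laptm5 no member was lower by 1.5-fold. That subtraction removes all Laptm5 by construction, so the loss of Laptm5 from the lower genes was fixed in advance.

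Lipa was higher in endothelial cell-like cells too, its leading class in the NeuroD1 library, at 211 CPM in the NeuroD1 library against 133 CPM in the GFP library (1.59 [1.36–1.87]). The 2046 cells of the NeuroD1 library were mostly in cluster 3 (1727), and the 1032 of the GFP library mostly in cluster 8 (916). Within cluster 8 the ratio was 1.16 [0.816–1.63], an interval that included 1. Of 33 genes 1 was higher, against 21.0% of 9704 genes, and 4 were lower, against 9.76%. The lower ones were Laptm5, Npc1 (NeuroD1 9.62 CPM, GFP 21.9 CPM, ratio 0.439), Atp6v0a1 (NeuroD1 44.8 CPM, GFP 69.5 CPM, ratio 0.645) and Hexa (NeuroD1 54.9 CPM, GFP 83.1 CPM, ratio 0.661), all below 25% of their highest level. Within cluster 8 the intervals of Npc1 (0.602 [0.153–1.73]), Atp6v0a1 (0.552 [0.265–1.04]) and Hexa (0.831 [0.471–1.39]) included 1. The log2 ratio of Hexa turned to 0.23 after subtraction by Laptm5 and to 0.67 after subtraction of free RNA by Ttr, with microglia markers at 203 CPM in the class with NeuroD1 and 1863 CPM with GFP. In choroid plexus epithelium-like cells, all in cluster 9, Atp6v1g1 was at 238 CPM in the NeuroD1 library against 410 CPM in the GFP library (0.580 [0.526–0.641]). Ttr alone made up 457500 CPM of this class with NeuroD1 and 292100 CPM with GFP. With totals that left out Ttr and the mitochondrial, ribosomal and haemoglobin genes, the log2 ratio of Atp6v1g1 was -0.46, inside 1.5-fold, the lower genes were 3 and the median was 0.11. The other 5 lower genes there, Laptm5, Npc1 (0.369), Grn (0.438), Gusb (0.548) and Hexa (0.639), were again below 25% of their highest level. Microglia markers were at 121 CPM in this class with NeuroD1 and 1676 CPM with GFP. After subtraction by Laptm5 the log2 ratio of Grn turned to 0.58, those of Gusb and Hexa were -0.23 and -0.02, and 2 genes were lower. Laptm5 itself was removed by construction and could not count among them. None was higher and 6 of 33 were lower, against 8.64% and 29.1% of 9606 genes, and the median log2 ratio of -0.22 stood against -0.33 over all genes.

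Neuron-like cells could not be compared as a class, since the 174 cells of the NeuroD1 library were nearly all in cluster 16 (167), led by Reln, and the 197 of the GFP library mostly in cluster 22 (124), led by Thy1 and Slc17a7. Over the class 4 of 24 genes were higher and 7 lower, against 40.6% and 21.1% of 3371 genes. Within cluster 16, of 13 measured pump genes 2 were higher, Atp6ap2 at 283 CPM with NeuroD1 and 178 CPM with GFP and Atp6ap1 at 356 CPM with NeuroD1 and 237 CPM with GFP, both ratios with intervals that included 1 ([0.925–2.94] and [0.939–2.54]), and 1 was lower, Atp6v1g1 (0.631 [0.481–0.838]). Over all 2233 genes measured in the cluster 18.6% were higher and 13.7% lower. The sum over the pump was 4680 CPM in the NeuroD1 library against 4274 CPM in the GFP library (1.09 [0.978–1.23]). Atp6v1a was at 150 CPM [115–193] in the NeuroD1 library against 142 CPM [73.4–248] in the GFP library, and Atp6v0a1 at 113 CPM with NeuroD1 and 130 CPM with GFP. Cluster 22 of the GFP library differed from both. It had Atp6v1a at 1213 CPM [1069–1372], from 254 UMIs in 83 of 124 cells, Atp6v1b2 at 669 CPM and Atp6v0a1 at 459 CPM. Atp6v1f was at 177 CPM in cluster 22, against 604 CPM in cluster 16 of the NeuroD1 library and 651 CPM in cluster 16 of the GFP library, and Atp6v1g1 at 129 CPM in cluster 22, against 531 CPM with NeuroD1 and 841 CPM with GFP in cluster 16. Subunits of V1 lay on both sides of 1 between cluster 22 and cluster 16.

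**Figure D5:**
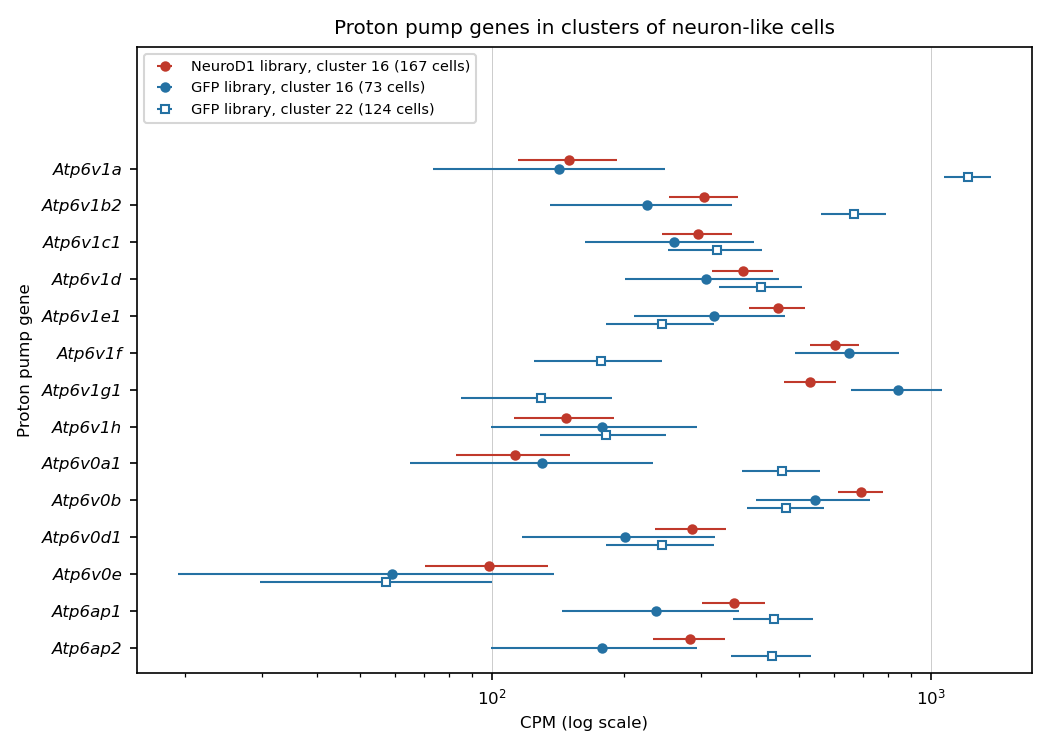
Points show the CPM (log axis) of 14 pump genes with exact 95% Poisson intervals in cluster 16 of the NeuroD1 library (167 cells), cluster 16 of the GFP library (73 cells) and cluster 22 of the GFP library (124 cells). Atp6v1a, Atp6v1b2 and Atp6v0a1 are highest in cluster 22, and Atp6v1f and Atp6v1g1 lowest there.

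In mural cells the counts were smaller still. Pericyte-like cells had 2 higher and 5 lower of 30 genes, against 24.8% and 13.3% of 5869 genes. Cluster 11 held most of them, 564 of 747 with NeuroD1 and 268 of 284 with GFP. The higher ones were Lipa (114 CPM in the NeuroD1 library against 63.7 CPM in the GFP library, 1.79 [1.04–3.34]) and Atp6v1h (1.78 [0.990–3.52]). Among the lower ones Atp6v1g1 was at 334 CPM with NeuroD1 and 528 CPM with GFP (0.632 [0.516–0.779]), and Hexa, Man2b1, Neu1 and Asah1 were the others. Within cluster 11 Lipa was at 61.4 CPM with NeuroD1 and 56.6 CPM with GFP (1.09 [0.535–2.43]). Atp6v1g1 (0.686 [0.538–0.881]), Neu1 (0.808) and Asah1 (0.738) were inside 1.5-fold there, while Hexa (0.438) and Man2b1 (0.221) were not. Microglia markers were at 248 CPM in pericyte-like cells with NeuroD1 and 2636 CPM in those with GFP. Smooth muscle-like cells had 3 higher and 3 lower of 21, against 16.1% and 10.8% of 3257 genes, with Atp6v0d1 at 1.78 [1.07–3.10] and Atp6v1e1 at 1.55 [1.07–2.31].

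Related genes of the lysosome were read in microglia-like cells from 5 further lists of 108 genes. The values of single genes are for the whole class, in which the libraries filled different clusters, and were not repeated within cluster 7. Of 32 measured other hydrolases and activators, 8 were higher and 9 lower. Lgmn, an asparagine endopeptidase, was at 5387 CPM in the NeuroD1 library against 3023 CPM in the GFP library (1.78), and Pla2g15, the lysosomal phospholipase, at 262 CPM with NeuroD1 and 99.3 CPM with GFP (2.64). Galc, the galactosylceramidase, was at 65.4 CPM with NeuroD1 and 150 CPM with GFP (0.437) and the alpha-galactosidase Gla at 12.7 CPM with NeuroD1 and 36.3 CPM with GFP (0.349). Members of this list thus lay on both sides of 1, with 15 of 32 within 1.5-fold. Of 12 other pump isoforms and assembly factors 3 were higher, led by Atp6v0a2 at 116 CPM in the NeuroD1 library against 34.5 CPM in the GFP library (3.35), and 0 lower. Of 23 other membrane proteins 7 were higher and 3 lower. Cd68 was at 1165 CPM with NeuroD1 and 2581 CPM with GFP (0.452), Cd63 at 672 CPM with NeuroD1 and 2085 CPM with GFP (0.322) and Gpnmb at 0.792 CPM with NeuroD1 and 92.4 CPM with GFP (0.00857 [0.00104–0.0311]), and Cd68 is also among the genes that lead cluster 1. Of 16 genes of the MiT/TFE factors and of their nutrient-sensing partners at the lysosome, 5 were higher and 1 was lower. Tfeb was at 44.0 CPM in the NeuroD1 library against 22.3 CPM in the GFP library (1.97) and Tfe3 at 68.1 CPM with NeuroD1 and 31.6 CPM with GFP (2.16). Of 11 genes of mannose 6-phosphate tagging and sorting 2 were higher, Sort1 (NeuroD1 107 CPM, GFP 52.3 CPM, ratio 2.05) and Gga3 (2.46), and 1 was lower. The background in this class was 36.1% higher and 14.5% lower. In astrocyte-like cells the median log2 ratio of each of these lists was below 0, from -0.35 to -0.14. Of 30 measured other hydrolases 9 were lower and 0 higher. Sort1, a sorting receptor that binds progranulin, was at 54.8 CPM with NeuroD1 and 138 CPM with GFP (0.397), the opposite side of 1 from microglia-like cells as a whole. The background there was 8.30% higher and 22.5% lower.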

How the data were processed

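The values deposited are UMI counts, whole numbers for each feature in each barcode, with 1 library per group. The authors' tools were FastQC, fastp, cutadapt, STAR and featureCounts on mm39, per the submitters' processing notes; their roles, versions and the annotation release are not given in the sources used here. Per the labels' protocols cells were caught on a SCOPE-chip, while another label names a different platform.

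Barcodes under 200 genes or over 20% mitochondrial UMIs were removed (131 of the NeuroD1 library, 104 of the GFP library), and Scrublet calls (3.66% and 4.78%) were removed. Both libraries were clustered together with scanpy 1.11.5 and leidenalg 0.10.2 on 3000 variable genes, 30 principal components, 15 neighbours and resolution 1.0, without the 35 genes and related lists. A cluster was named from fixed markers where at least 3 were among its 100 leading genes, a rule written after the files were read. The result was 26 clusters, 14 named classes and 1 unnamed cluster. The immature neuron-like class held microglial RNA and was left out of the class order after this was seen.

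UMIs were summed per class and library and scaled to CPM of the class total. Intervals are exact Poisson for CPM and exact conditional binomial for ratios (scipy 1.17.1). Log2 ratios had 0.5 UMI added to each sum. The ratios and their binomial intervals were tested on Poisson counts simulated from class sums, which hold counting error only. The Poisson intervals of CPM and the log2 ratios with 0.5 UMI added were not tested in this way. The members and lists were chosen with earlier results of these data known. Genes were named by rule: in microglia-like cells any member, elsewhere members at 25% or more of their highest level in any class of either library, ordered by how far the nearer interval end lay from 1, and up to 4 other list genes per direction. Genes below that level are named where a count needs them. Promoter letters came from RefSeq on GRCm38.p6, a build other than that of the counts. Alternatives covered filters, doublets, clustering, scaling, low counts, thinning, free RNA and single clusters. The values of 1 gene in the list of other hydrolases are not reported here.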

Additional observations from a re-analysis of the deposited data

Results flagged for a closer look

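Npc1, the cholesterol exporter of the lysosomal membrane, had a CPM ratio of NeuroD1 over GFP of 1.65 [1.37–1.99] in microglia-like cells and 0.561 [0.491–0.644] in astrocyte-like cells. Over the whole classes the intervals lie on opposite sides of 1, which is why the gene is listed here. Within cluster 7, the microglia-like cluster that both libraries filled, the ratio was 1.29 [0.919–1.82], inside 1.5-fold and with an interval that included 1, and within astrocyte-like cluster 6 it was 0.559 [0.347–0.903]. In the GFP library alone Npc1 was at 41.5 CPM in cluster 1 and 86.5 CPM in cluster 7, and cluster 1 held 14 cells of the NeuroD1 library against 2841 of the GFP library. The difference between the classes was not tested, since each group was 1 library.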

How the results depend on the processing

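No paired analysis was possible because each group was 1 library and no test was made. Of 211 list values recomputed under the alternatives 165 stayed within their limits and 46 moved, and of 423 values of single members 353 stayed, 61 moved and 9 reversed.

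Within cluster 7 of microglia-like cells the log2 ratios reversed to 0.072 for Atp6v1f, 0.10 for Gusb and 0.32 for Hexa. Within cluster 6 of astrocyte-like cells Lipa reversed to 0.52, from 10 and 3 UMIs. Subtraction by Laptm5, chosen after seeing the data, reversed Grn to 0.58 in choroid plexus epithelium-like cells and Hexa to 0.23 in endothelial cell-like cells. Subtraction of free RNA by Ttr reversed Hexa to 0.67 and Laptm5 to 2.26 in endothelial cell-like cells and Man2b1 to 0.54 in oligodendrocyte-like cells. For Laptm5 the amount subtracted exceeded the whole count in the GFP library. Its 2.26 therefore rests on the 0.5 UMI added and measures no difference.

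Centring on the median of all genes moved the members' median log2 ratio to -0.43 in microglia-, -0.036 in astrocyte-, -0.15 in endothelial cell- and 0.11 in choroid plexus epithelium-like cells. The last was also 0.11 with totals that left out mitochondrial, ribosomal and haemoglobin genes and Ttr. The median was -0.14 in cluster 8 of endothelial cell-like cells and 0.051 in oligodendrocyte-like cells after Ttr subtraction.

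Of the counts of higher members, the 4 in microglia-like cells became 2 with doublets kept, with those totals or in cluster 7, 1 with centring and 0 at a 2-fold threshold. The 1 in astrocyte-like cells became 0 at 2-fold or in cluster 6. The 1 in oligodendrocyte-like cells became 3 with thinning, 6 with Ttr and 2 with Laptm5 subtraction. The 1 in endothelial cell-like cells became 0 with centring or at 2-fold, 2 with thinning, 7 with Ttr and 3 with Laptm5 subtraction. The 7 include Laptm5, whose whole count in the GFP library that subtraction removed. The 0 in choroid plexus epithelium-like cells became 2 with those totals or centring, 4 with thinning, and 1 with a mean over cells or Laptm5 subtraction.

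Of the counts of lower members, the 5 in microglia-like cells became 14 with centring, 2 in cluster 7 and 1 at 2-fold. The 8 in astrocyte-like cells became 5 with centring or Ttr subtraction and 3 at 2-fold. The 2 in oligodendrocyte-like cells became 1 with a minimum of 200 UMIs or at 2-fold, and 0 with either subtraction. The 4 in endothelial cell-like cells became 2 with that minimum, at 2-fold or with either subtraction. The 6 in choroid plexus epithelium-like cells became 3 with those totals, centring or 2-fold, 12 with thinning and 2 with Laptm5 subtraction. Subtraction by Laptm5 removes all Laptm5 by construction, so Laptm5 could not count as lower after it. Ttr subtraction also removed all Laptm5 of both libraries in astrocyte- and oligodendrocyte-like cells, so Laptm5 could not count as lower there either. Except for clusters 6 and 7, no share of all genes is given under the same alternative for these counts of higher and lower members. The same holds for counts after subtraction or with other totals in the sections above. Such counts show how the calls depend on the processing and are not results about the members. The causes were not tested, apart from the construction of the alternatives.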

Other observations

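Among the cells left out of the class order, the immature neuron-like class held 151 cells with NeuroD1 and 86 with GFP. The 35 genes made up 0.677% of its UMIs with NeuroD1 and 1.12% with GFP. Its Laptm5 was at 683 CPM with NeuroD1 and 901 CPM with GFP, and its microglia markers summed to 12050 CPM with NeuroD1 and 28330 CPM with GFP. The part of microglial RNA in these values was not tested. The unnamed cluster 13 held 5 cells with NeuroD1 and 603 with GFP, and the 35 genes made up 1.32% of its UMIs in the GFP library.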
